A study of Homo sapiens with 11 samples.

Results

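The genes described here encode the machinery with which the endoplasmic reticulum (ER) receives, glycosylates and folds secreted and membrane proteins. They were chosen as 60 gene symbols named by function, and all 60 were found among the 37247 gene identifiers of the expression table through their Ensembl identifiers. The choice was made with the comparison between the labelled groups already known. The fold changes, calls and counts given for the members therefore describe them and are not independent evidence. The source was RNA sequencing of cells labelled MDA-MB-231, which is an established line known as triple-negative breast cancer, in 3 libraries labelled Control-KD, with the genotype given as WT, and 3 labelled H2AS40-KD, a knockdown of the S40-type form of histone H2A. All libraries came from cells in the same medium with serum, and the labels give neither the knockdown reagent nor its duration, nor whether replicates were separate cultures. The p-values therefore reflect how far these libraries varied among themselves, a spread that may be technical. The series holds 11 samples, and its 5 chromatin samples were not analysed here.

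A signal peptide emerging from a ribosome is bound by the signal recognition particle, which docks at its receptor on the ER membrane and hands the chain to the SEC61 channel. Signal peptidase then removes the signal, and the oligosaccharyltransferase transfers a preassembled glycan from a dolichol lipid to asparagines of the entering chain. Glucose trimming, the lectin chaperones calnexin and calreticulin, disulfide isomerases and the HSP70 and HSP90 chaperones of the lumen fold the chain, and chains that fail are returned to the cytosol for degradation. The unfolded protein response, sensed in part by IRE1 (ERN1) and ATF6, is known to raise transcription of many of these genes, with XBP1 as one of its transcription factors.

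Values were TPM, transcripts counted per 1000000, which are scaled by gene length, so levels of different genes can be set side by side but the sequencing depth is unknown. The number of genes at 1 TPM or more was 14073 to 14120, and Control-KD replicate 3 stood apart on the first principal component (-31.2, where the others lay between -0.784 and 12). The labels name no H2A gene as the target. The sum over 15 genes with an H2AC symbol was 206, 223 and 223 TPM in Control-KD against 224, 231.5 and 231 TPM in the H2AS40-KD-labelled libraries, so the knockdown could not be read from these values and both group names are used as labels. The genes VIM, CD44, EGFR, MET, CAV1 and AXL were taken as markers of this line. They summed to 3069 to 3086 TPM in Control-KD against 2952 to 2996 TPM in the H2AS40-KD-labelled libraries. Most of the sum was VIM at 2247 to 2281 TPM, with overlap between groups (log2 fold change 0.01). The other 5 were all lower without overlap, CAV1 by a log2 fold change of -0.42, MET of -0.28, CD44 of -0.21, EGFR of -0.13 and AXL of -0.09. Of these CAV1 fell (limma adjusted p = 0.0173), and the next smallest limma adjusted p was that of CD44, at 0.0543. Of 9 luminal and receptor genes, several of which this line is known to lack, GATA3 was at 436 to 471 TPM and EPCAM at 163 to 174 TPM. CDH1 was at 56.8 to 64.8 TPM, and the oestrogen receptor ESR1 at 12.3 to 21.2 TPM. The progesterone receptor PGR was near the floor at 1.20 to 2.18 TPM, and ERBB2 was at 27.7 to 31.9 TPM. FOXA1 was at 75.2 to 94.0 TPM, KRT8 at 3503 to 3629 TPM and KRT18 at 2236 to 2291 TPM. On GATA3, EPCAM, CDH1 and ESR1 the values go against the labelled line, in both groups, while the low PGR does not. The part of this in the results below was not tested. Blood cell markers (7 genes) summed to 1.44 to 3.10 TPM, and markers of fibroblasts and endothelium (7 genes) to 6.86 to 10.2 TPM, over all libraries.

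Each gene was compared on log2(TPM + 1) with limma, a linear model with a variance shared across genes, over the 14160 genes that reached 1 TPM in at least 3 libraries. P-values were adjusted by the Benjamini-Hochberg method over all of them, and a gene passed at an adjusted p under 0.05. Every member was at 1 TPM or more in all 6 libraries, from 11.1 TPM for ERN1 in 1 Control-KD library to 658 TPM for CALR in another, so none was lost to the filter.

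Most members had slightly lower transcript levels in the H2AS40-KD-labelled libraries. By limma 5 of the 60 fell: the translocon subunit SSR1, the oligosaccharyltransferase subunits DDOST and STT3A, the lectin chaperone CALR and the HSP90 chaperone HSP90B1, each by 14.6% to 17.0% in mean TPM. By the same test 0 rose. Over all tested genes 1.26% passed, that is 0.742% lower and 0.516% higher, or 1.01% lower and 0.749% higher among the 9342 genes whose mean reached 10 TPM, a level that every member exceeded. At an unadjusted p under 0.05, 27 members were lower and 3 higher, where 7.75% and 8.76% of all tested genes were (9.17% and 10.9% at 10 TPM or more). In 27 of the 60 members every library labelled H2AS40-KD lay below every Control-KD library, and in 3 (ALG3, DNAJB9 and XBP1) every one lay above. The same was true of 11.3% (below) and 12.9% (above) of all tested genes, and of 12.3% and 15.2% of those at 10 TPM or more. The median log2 fold change of the members was -0.10, with 49 of 60 negative, beside a median of 0.01 over all tested genes, of which 46.9% were negative. Over the alternative scalings and fits 48 to 53 of the 60 were negative. The 6 markers of the labelled line had a median of -0.17, and their part in the members' difference was not tested. Library by library, the members' median relative to the Control-KD mean was -0.09, -0.09 and -0.12 in the H2AS40-KD-labelled libraries and -0.01, -0.00 and 0.02 in Control-KD. In bulk RNA, fewer transcripts per cell and a smaller share of cells expressing a gene cannot be told apart.

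The 5 calls rested on the full set of libraries. Without Control-KD replicates 1, 2 and 3 in turn, 0, 0 and 3 of them were called, and without replicates 1, 2 and 3 labelled H2AS40-KD 0, 0 and 1, beside 6, 10, 159, 7, 5 and 34 calls over all genes in those fits. When the spread was not allowed to vary with expression level, 0 of the 5 passed, beside 10 genes in the whole table.

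**Figure D1:**
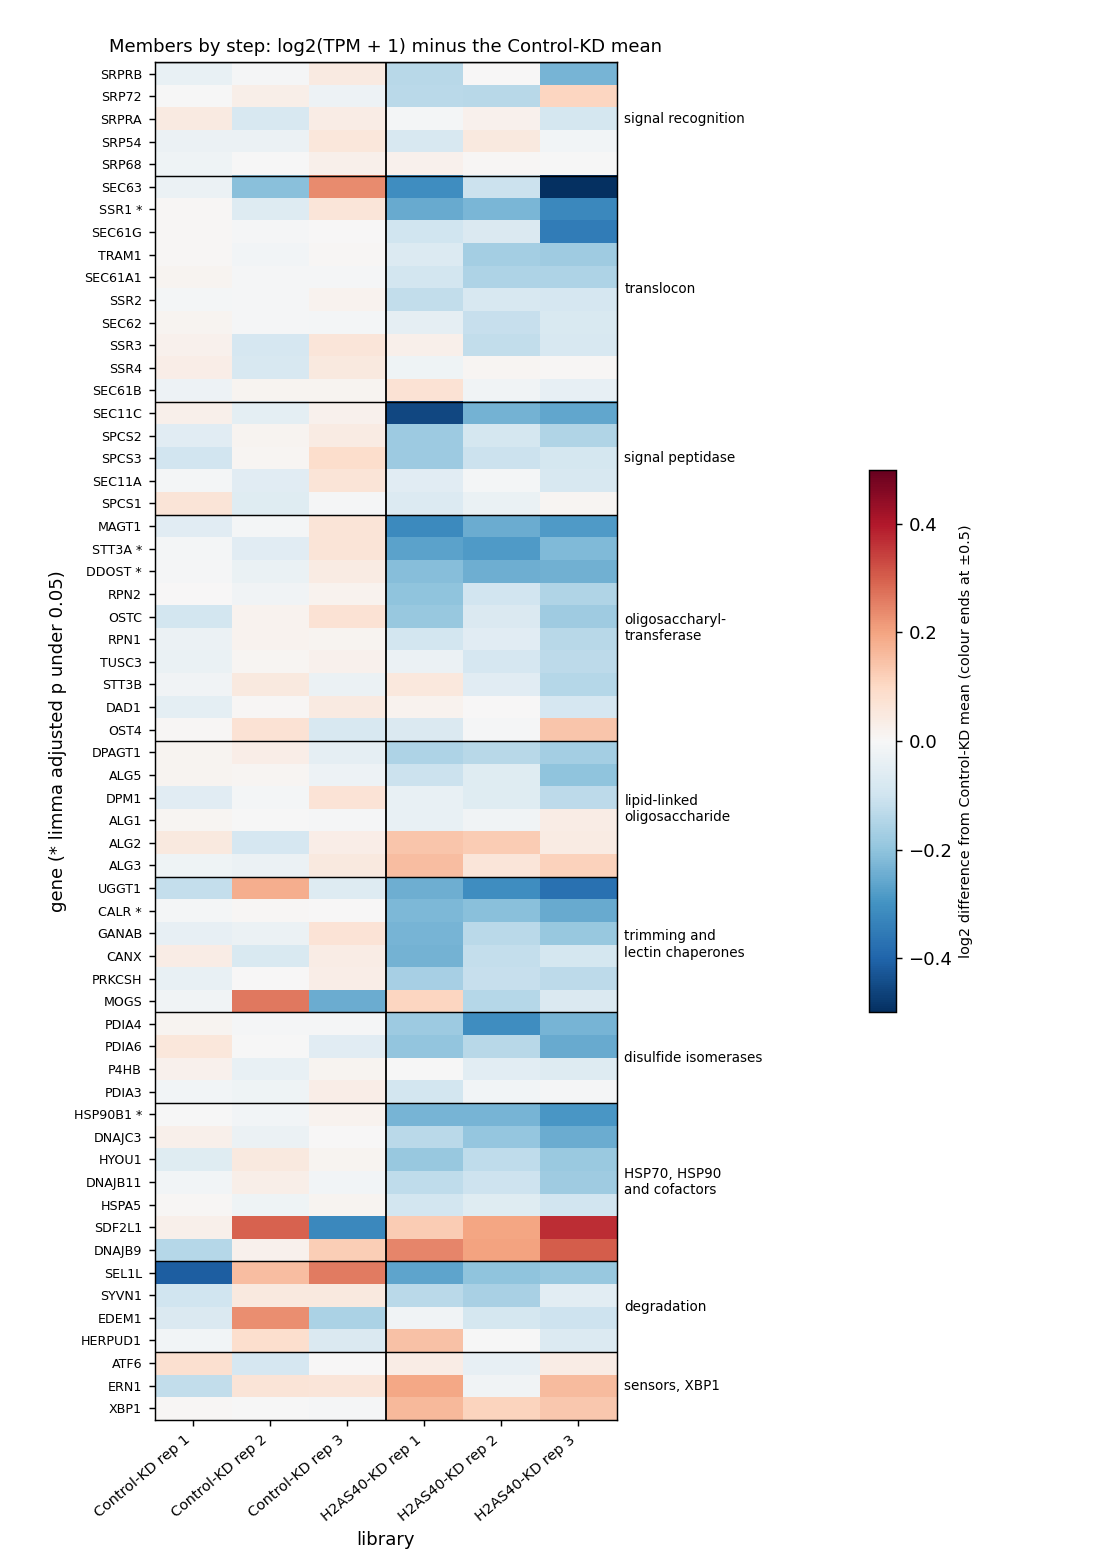
Log2(TPM + 1) of each of the 60 members (rows, grouped by step and ordered by fold change) in each library (columns), as the difference from the Control-KD mean; blue is lower, red is higher, and the colour scale ends at 0.5 in either direction. Asterisks mark the 5 members past the threshold, and 49 of the 60 members have a negative fold change; XBP1, DNAJB9 and ALG3 are higher in every H2AS40-KD column.

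**Figure D2:**
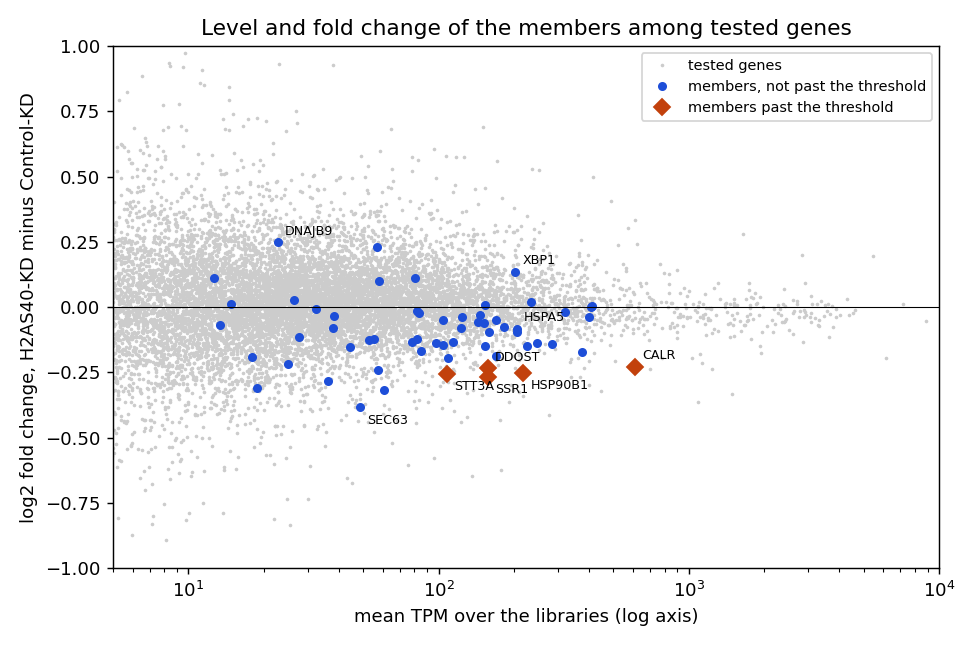
Mean TPM over the libraries (log axis) against log2 fold change for tested genes at 5 TPM or more and within 1 on the log2 scale (grey), members not past the threshold (blue) and members past it (orange). The 5 called members lie between log2 fold changes of -0.23 and -0.27, and the members' levels span 12.7 to 607 TPM.

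By median fold change, targeting to the membrane differed least among the early steps. For the 5 genes of the signal recognition particle and its receptor the median log2 fold change was -0.02. By limma 0 passed, where 1.26% of all tested genes did. At an unadjusted p under 0.05 there were 0, where 7.75% of all tested genes were lower and 8.76% higher. In 5 genes, counts of 0 are near these shares. SRP68, a protein of the particle and the most abundant of the group, measured 151, 153 and 156 TPM in Control-KD, compared with 155, 154 and 153 TPM in the H2AS40-KD-labelled libraries (log2 fold change 0.01, SE 0.031, limma adjusted p = 0.928). SRPRB, the membrane-anchored receptor subunit, had 83.2, 84.8 and 88.0 TPM against 77.4, 85.4 and 72.5 TPM (log2 fold change -0.12, limma adjusted p = 0.399). The groups overlapped for both genes and for each of the other 3, and the sign of SRP68 turned under quantile normalization. Their summed TPM, 552 ± 7.12 and 538 ± 9.24 (SD, n = 3 each), did not overlap.

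At the translocon 9 of 10 genes had a negative fold change and 1 passed. SSR1 (ENSG00000124783.12, chromosome 6 from 7281143 to 7313199 of GRCh38), the alpha subunit of the translocon-associated protein complex that helps chains enter the channel, measured 172, 164 and 179 TPM in Control-KD. In the H2AS40-KD-labelled libraries it had 144, 146 and 137 TPM, all below the lowest control. The means were 172 ± 7.41 and 142 ± 4.70 TPM (SD, n = 3 each), for a log2 fold change of -0.27 (SE 0.045, limma adjusted p = 0.0459, 0.0364 to 0.178 over the alternatives). Both of its named pseudogenes were listed at 0 in every library. Its partner SSR4, the delta subunit, had 416, 383 and 419 TPM against 399.9, 409 and 407 TPM, with overlap. The ratio of SSR1 to SSR4 was 0.423 ± 0.00775 in Control-KD and 0.351 ± 0.0128 in the H2AS40-KD-labelled libraries (SD, n = 3 each), without overlap. This ratio reuses the SSR1 values of the call and is not further evidence, and the difference between the subunits was not tested. Of the remaining subunits, SSR2 had a log2 fold change of -0.10 without overlap and SSR3 one of -0.06 with overlap.

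The channel's own subunits did not pass. SEC61A1, the pore-forming subunit, had 121, 119 and 119 TPM against 112, 107 and 107 TPM, without overlap (log2 fold change -0.13, SE 0.035, limma adjusted p = 0.14). SEC61B, the small beta subunit and the most abundant gene of the step, had 401, 411 and 412 TPM against 429, 403 and 396 TPM (log2 fold change 0.01, negative under median-of-ratios scaling and quantile normalization, SE 0.036, limma adjusted p = 0.955). SEC63, which recruits BiP to the channel, had the most negative fold change of all members but the widest spread within groups, with 53.4, 47.1 and 64.5 TPM against 43.8, 50.7 and 32.4 TPM. Its groups overlapped, and its log2 fold change of -0.38 had an SE of 0.17 (limma adjusted p = 0.335). In 6 of the 10 genes the H2AS40-KD-labelled libraries all lay below Control-KD, as in 11.3% of all tested genes. These were SSR1, SEC61A1, SEC61G, SEC62, SSR2 and TRAM1.

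Signal peptidase, which cuts off the signal, has a catalytic subunit in 2 versions, SEC11A and SEC11C. SEC11C measured 68.4, 65.0 and 68.4 TPM in Control-KD, compared with 48.7, 57.0 and 56.1 TPM in the H2AS40-KD-labelled libraries, without overlap. Its log2 fold change of -0.32 (SE 0.067) did not pass (limma adjusted p = 0.0875, 0.0674 to 0.202 over the alternatives). SEC11A was at a higher level and overlapped, with 171, 166 and 180.5 TPM against 166, 171 and 163 TPM (log2 fold change -0.05). The ratio of SEC11C to SEC11A was 0.390 ± 0.0105 in Control-KD and 0.324 ± 0.0259 in the H2AS40-KD-labelled libraries (SD, n = 3 each), without overlap. It reuses the values above, and the difference between these versions was not tested. SPCS2, an accessory subunit and the most abundant gene of the step, had 288, 302 and 308 TPM against 263, 281 and 269 TPM (log2 fold change -0.14, limma adjusted p = 0.153). Of the 5 genes 0 passed, with 2 lower at an unadjusted p under 0.05 by limma, where 7.75% of all tested genes were.

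The oligosaccharyltransferase held 2 of the 5 falls. This membrane complex exists with either of a pair of catalytic subunits: STT3A works beside the translocon on entering chains, and STT3B glycosylates sites that STT3A has missed, with MAGT1 or TUSC3 as its oxidoreductase partner. STT3A (ENSG00000134910.12, chromosome 11 from 125591769 to 125623091) measured 117, 113 and 123 TPM in Control-KD, compared with 97.7, 96.5 and 101 TPM in the H2AS40-KD-labelled libraries, without overlap. The means were 118 ± 5.03 and 98.4 ± 2.31 TPM (SD, n = 3 each), for a log2 fold change of -0.26 (SE 0.044, limma adjusted p = 0.0495, 0.0399 to 0.190 over the alternatives), so the call lay at the threshold. STT3B had 104, 109 and 103 TPM against 109, 101 and 95.5 TPM, with overlap (log2 fold change -0.05, SE 0.056, limma adjusted p = 0.706). The difference between the paralogues was not tested, and the ratio of STT3A to STT3B, 1.12 ± 0.0772 against 0.967 ± 0.0837 (SD, n = 3 each), overlapped between groups.

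DDOST (ENSG00000244038.9, chromosome 1 from 20651777 to 20661369), a non-catalytic subunit of both forms of the complex, measured 169, 166 and 174 TPM in Control-KD, compared with 146, 143 and 143 TPM in the H2AS40-KD-labelled libraries. The means were 169.8 ± 4.42 and 144 ± 1.88 TPM (SD, n = 3 each), without overlap, a log2 fold change of -0.23 (SE 0.034, limma adjusted p = 0.0323, 0.0261 to 0.147 over the alternatives). The labels do not say whether strand was kept, and RefSeq places PINK1-AS over DDOST and STT3A-AS1 over STT3A, so reads of these pairs cannot be told apart. MAGT1 had 38.2, 39.5 and 41.7 TPM against 31.7, 33.4 and 32.5 TPM, without overlap, but did not pass (log2 fold change -0.28, limma adjusted p = 0.0677). TUSC3, at a like level, had 38.0, 39.1 and 39.5 TPM against 38.0, 36.6 and 35.4 TPM (log2 fold change -0.08, limma adjusted p = 0.483). The ratio of MAGT1 to TUSC3 was 1.02 ± 0.0276 and 0.887 ± 0.0470 (SD, n = 3 each), without overlap, and the difference between them was not tested. DAD1, a small membrane subunit and the most abundant of the complex, had 312, 324 and 333 TPM against 327, 323 and 305 TPM (log2 fold change -0.02). In all, 9 of the 10 subunit genes had a negative fold change, and the median was -0.12. By limma 6 were lower at an unadjusted p under 0.05, where 7.75% of all tested genes were.

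**Figure D3:**
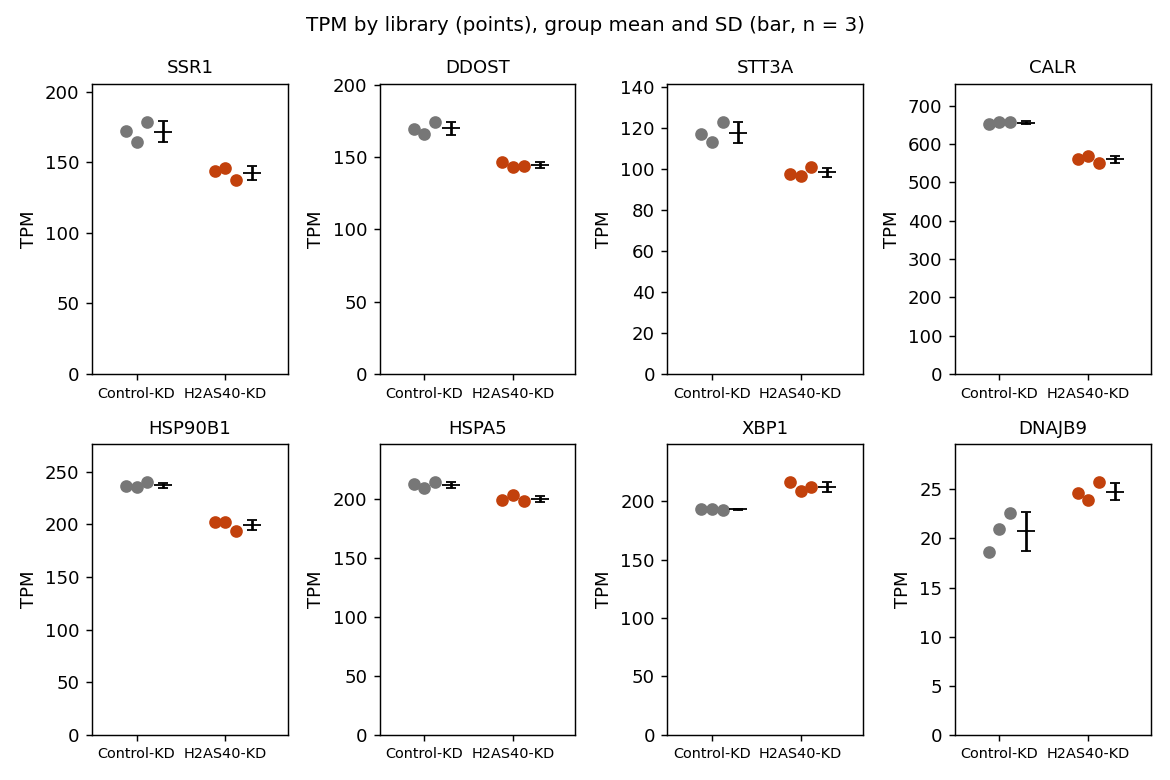
TPM (vertical axes, from 0) of the 5 members that fell and of HSPA5, XBP1 and DNAJB9 in each library (points, Control-KD grey and H2AS40-KD orange), with the group mean and SD (n = 3 each). The groups do not overlap in any of the 8 genes, and XBP1 and DNAJB9 are higher on the H2AS40-KD side without having passed the test.

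Synthesis of the lipid-linked glycan that the complex transfers went both ways by small amounts. DPAGT1, which adds the first sugar to dolichol phosphate, measured 47.0, 47.6 and 45.2 TPM in Control-KD, compared with 41.7, 42.2 and 41.3 TPM in the H2AS40-KD-labelled libraries, without overlap (log2 fold change -0.15, limma adjusted p = 0.175). Its gene overlaps that of the histone H2AX, so reads there may be shared. ALG3, a mannosyltransferase of the lumen, had 76.2, 75.9 and 80.2 TPM against 86.3, 80.7 and 83.9 TPM, all higher (log2 fold change 0.11, limma adjusted p = 0.287). DPM1, which makes the mannose donor and was the most abundant of the step, had 180.1, 186 and 196 TPM against 182, 179.8 and 171 TPM, with overlap. Of the 6 genes limma called 0, and the median was -0.04. At an unadjusted p under 0.05, 2 were lower and 1 higher, where 7.75% and 8.76% of all tested genes were.

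After transfer, glucosidases and the lectin chaperones act on the glycan, and here the summed TPM differed most among the steps. It was 1392 ± 12.9 in Control-KD and 1221 ± 17.5 in the H2AS40-KD-labelled libraries (SD, n = 3 each), 12.2% lower. CALR alone made up 655 and 559 TPM of these sums, so much of the difference was that of CALR. CALR (ENSG00000179218.13, chromosome 19 from 12938609 to 12944489) encodes calreticulin, the soluble lectin chaperone that also binds calcium, and was the most abundant member. It measured 652, 658 and 656 TPM in Control-KD, compared with 561, 567 and 549.5 TPM in the H2AS40-KD-labelled libraries, so the gap between the groups was several times the range within either. The log2 fold change was -0.23 (SE 0.024), with a limma adjusted p of 0.0136 and a range of 0.0102 to 0.123 over the alternatives. It was called in 10 of 16 alternatives, more often than any other member.

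CANX, the membrane-bound counterpart calnexin, had 243, 224 and 243 TPM against 201, 218 and 223 TPM (log2 fold change -0.15, SE 0.052, limma adjusted p = 0.236). Although its groups did not overlap, the ratio of CALR to CANX did (2.77 ± 0.142 and 2.62 ± 0.164, SD, n = 3 each). UGGT1, the folding sensor that puts glucose back on unfolded glycoproteins, had 19.1, 23.8 and 19.9 TPM against 17.4, 16.6 and 15.9 TPM (log2 fold change -0.31, SE 0.094, limma adjusted p = 0.185). GANAB and PRKCSH, the catalytic and regulatory subunits of glucosidase II, had log2 fold changes of -0.19 and -0.14 without overlap, and neither passed (limma adjusted p = 0.111 and 0.109). MOGS, glucosidase I, was the exception in this step, with overlapping groups and a wide spread in Control-KD (38.1, 46.5 and 32.4 TPM).

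**Figure D4:**
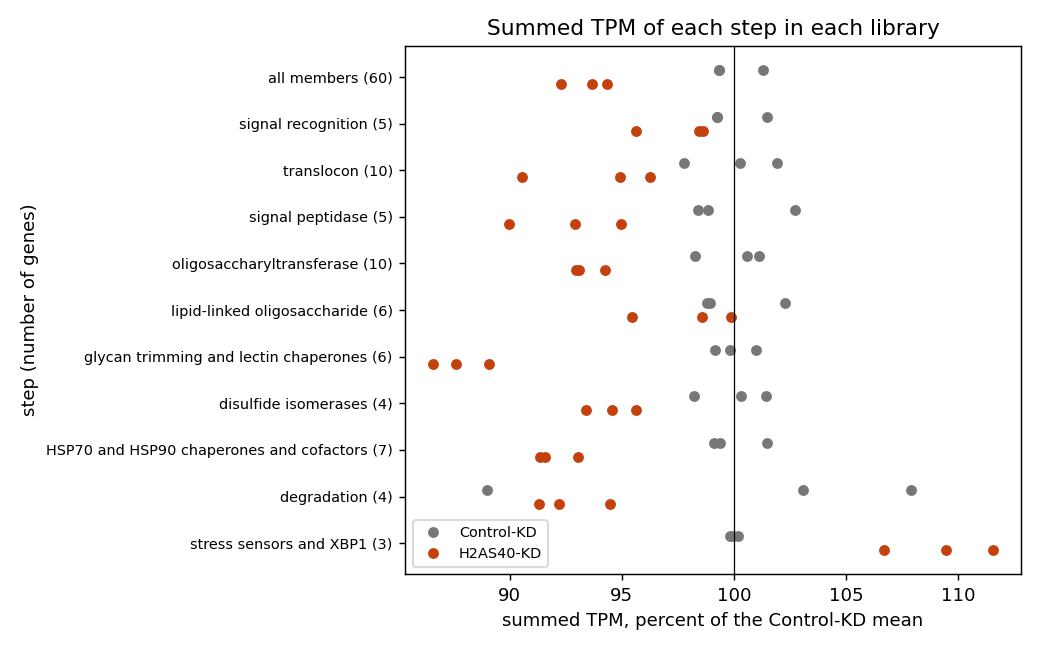
Summed TPM of the genes of each step (rows, number of genes in brackets) in each library, as a percent of the Control-KD mean (horizontal axis, which does not start at 0), with Control-KD in grey and H2AS40-KD in orange. Trimming and lectin chaperones lie 12.2% below the control mean, a sum of which CALR made up 655 of 1392 TPM in Control-KD. The stress sensors with XBP1 lie 9.24% above the control mean, a sum that is mostly XBP1 (193 of 219.9 TPM in Control-KD), which did not pass. The groups overlap in the lipid-linked oligosaccharide and degradation steps.

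The disulfide isomerases, which form and rearrange disulfide bonds, all had negative fold changes, and none of the 4 passed by limma. P4HB, the archetypal isomerase and the most abundant, measured 411, 395 and 409 TPM in Control-KD, compared with 404, 391 and 387 TPM in the H2AS40-KD-labelled libraries, with overlap (log2 fold change -0.04, limma adjusted p = 0.573). PDIA4 had 62.8, 61.9 and 61.9 TPM against 54.7, 49.98 and 52.8 TPM, without overlap (log2 fold change -0.24, SE 0.048, limma adjusted p = 0.0751). PDIA6 had a log2 fold change of -0.20 without overlap (limma adjusted p = 0.116), and PDIA3, the partner of the lectin chaperones, one of -0.04 with overlap. At an unadjusted p under 0.05, 2 of the 4 were lower, where 7.75% of all tested genes were.

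Among the HSP70 and HSP90 chaperones of the lumen and their cofactors, HSP90B1 fell. HSP90B1 (ENSG00000166598.14, chromosome 12 from 103930410 to 103947926), which encodes GRP94, the HSP90 of the ER, measured 237, 235 and 239.9 TPM in Control-KD, compared with 202, 202 and 194 TPM in the H2AS40-KD-labelled libraries. The means were 237 ± 2.52 and 199 ± 4.73 TPM (SD, n = 3 each), without overlap, a log2 fold change of -0.25 (SE 0.031, limma adjusted p = 0.0205, 0.0158 to 0.126 over the alternatives). HSPA5, which encodes BiP, the HSP70 of the ER, had 212, 209 and 214 TPM against 199, 203 and 198 TPM. Its groups did not overlap either, but its log2 fold change was -0.08 (SE 0.030, limma adjusted p = 0.242). The ratio of HSP90B1 to HSPA5 was 1.12 ± 0.00571 in Control-KD and 0.997 ± 0.0187 in the H2AS40-KD-labelled libraries (SD, n = 3 each), without overlap, and the difference between these fold changes was not tested.

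None of the cofactors of BiP passed. HYOU1, a nucleotide exchange factor, DNAJB11 and DNAJC3, J-domain proteins, had log2 fold changes of -0.17, -0.14 and -0.19, each without overlap (limma adjusted p = 0.147, 0.177 and 0.222). DNAJB9, another J-domain protein and a known target of XBP1, measured 18.6, 21.0 and 22.6 TPM in Control-KD, compared with 24.7, 23.9 and 25.7 TPM in the H2AS40-KD-labelled libraries, all above the highest control (log2 fold change 0.25, SE 0.082, limma adjusted p = 0.214). SDF2L1, a partner of the BiP cycle, had 52.7, 63.7 and 41.2 TPM against 56.7, 59.5 and 67.0 TPM, with overlap (log2 fold change 0.23, SE 0.15, limma adjusted p = 0.497).

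The degradation genes and the sensors showed no call. SEL1L, the adaptor of the ubiquitin ligase complex for misfolded proteins, measured 19.8, 29.8 and 32.2 TPM in Control-KD, compared with 22.1, 23.1 and 23.3 TPM in the H2AS40-KD-labelled libraries, with Control-KD replicate 1 lowest of all (log2 fold change -0.22, SE 0.17, limma adjusted p = 0.560). Without that library its log2 fold change was -0.42 (limma adjusted p = 0.107), the most negative of the 16 alternatives. Over all of them it ran from -0.42 to -0.09 (limma adjusted p from 0.107 to 0.832), and SEL1L was called in 0. SYVN1, the ligase itself, had 26.9, 30.0 and 30.0 TPM against 26.2, 25.8 and 27.9 TPM (limma adjusted p = 0.443). XBP1, the transcription factor whose messenger is spliced by IRE1, had 194, 193 and 192 TPM against 216, 208 and 212 TPM, without overlap. Its log2 fold change of 0.14 (SE 0.030) did not pass (limma adjusted p = 0.0942, 0.0809 to 0.269 over the alternatives), and a gene total does not separate the spliced form from the unspliced. ERN1 and ATF6, the sensors themselves, were low and overlapped, with 12.2 ± 0.962 and 13.2 ± 1.09 TPM for ERN1 and 14.7 ± 0.893 and 14.8 ± 0.477 TPM for ATF6 (SD, n = 3 each).

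Promoter sequence was examined next, and it was not itself used to choose the members. They were chosen by function, and the unfolded protein response is known to raise many of them. Matches to elements of that response are therefore not independent of the choice, and their counts describe the members. The ER stress response element is CCAAT, then any 9 bases, then CCACG, and is bound by NF-Y at its first part and by ATF6 or XBP1 at its last. The shorter ER stress response element II is ATTGG, any 1 base, then CCACG. RefSeq windows of 300 bases (250 before a start site and 50 from it, GRCh38.p14) were at hand for 52 members, and not for RPN1, TUSC3, TRAM1, SPCS1, MOGS, SRPRA, STT3B and PDIA3. On either strand, 6 of the 52 members held an exact match to the first element (CALR, CANX, HSP90B1, HSPA5, PDIA6 and XBP1), where 25 of all 27305 genes with such windows did (0.0916%). The second was found in 3 members (HERPUD1, HYOU1 and SDF2L1), where 19 of all genes held it (0.0696%). The windows of the chaperones that fell, HSP90B1 and CALR, and of XBP1, which had a positive fold change and did not pass, are shown 5′ to 3′ on the strand of the gene, with the matches in capitals. In HSP90B1 there are 2 matches in opposite orientations, and in CALR the match is reversed.

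HSP90B1 window, chr12:103930160-103930459, plus strand: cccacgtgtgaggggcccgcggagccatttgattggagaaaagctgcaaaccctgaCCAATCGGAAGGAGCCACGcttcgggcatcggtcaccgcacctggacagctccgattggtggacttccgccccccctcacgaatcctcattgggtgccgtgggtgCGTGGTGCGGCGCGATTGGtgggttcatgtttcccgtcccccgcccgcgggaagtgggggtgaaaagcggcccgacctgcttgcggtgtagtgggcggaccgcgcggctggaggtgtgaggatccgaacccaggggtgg
CALR window, chr19:12938359-12938658, plus strand: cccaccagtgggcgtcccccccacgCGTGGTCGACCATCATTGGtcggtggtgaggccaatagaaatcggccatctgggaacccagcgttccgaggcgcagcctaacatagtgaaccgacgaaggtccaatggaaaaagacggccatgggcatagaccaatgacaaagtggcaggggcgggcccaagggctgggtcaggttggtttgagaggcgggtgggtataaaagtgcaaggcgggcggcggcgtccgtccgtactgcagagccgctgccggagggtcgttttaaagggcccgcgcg
XBP1 window, chr22:28800520-28800819, minus strand: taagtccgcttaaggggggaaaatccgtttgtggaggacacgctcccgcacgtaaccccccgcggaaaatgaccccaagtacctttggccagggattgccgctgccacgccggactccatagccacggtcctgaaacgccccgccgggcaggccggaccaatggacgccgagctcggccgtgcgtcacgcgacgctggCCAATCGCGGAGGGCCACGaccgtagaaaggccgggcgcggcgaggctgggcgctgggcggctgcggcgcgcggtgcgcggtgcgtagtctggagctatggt

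The remaining matches, with 15 bases on either side in lower case, are shown to compare the elements of genes that differed little or did not pass. The coordinates are those of the capitals.

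HSPA5, chr9:125241391-125241409, minus strand gene: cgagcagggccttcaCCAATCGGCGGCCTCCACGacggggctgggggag
CANX, chr5:179698778-179698796, plus strand gene: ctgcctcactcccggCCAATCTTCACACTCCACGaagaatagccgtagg
PDIA6, chr2:10812853-10812871, minus strand gene: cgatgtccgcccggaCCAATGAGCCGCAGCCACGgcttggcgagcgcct
HERPUD1, chr16:56932025-56932035, plus strand gene: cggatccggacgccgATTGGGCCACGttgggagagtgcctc
SDF2L1, chr22:21642114-21642124, plus strand gene: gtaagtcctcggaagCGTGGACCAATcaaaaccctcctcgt
HYOU1, chr11:119057274-119057284, minus strand gene: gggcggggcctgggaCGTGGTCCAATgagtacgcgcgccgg
HYOU1, chr11:119057380-119057390, minus strand gene: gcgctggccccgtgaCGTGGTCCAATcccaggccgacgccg

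Of the genes with either element 2 passed, both lower. The log2 fold changes of the 6 genes with the first element were -0.25 (HSP90B1), -0.23 (CALR), -0.20 (PDIA6), -0.15 (CANX), -0.08 (HSPA5) and 0.14 (XBP1), and HSP90B1 and CALR were those that passed. Those of the genes with the second element were -0.17 (HYOU1), 0.03 (HERPUD1) and 0.23 (SDF2L1), and none passed. The other genes that fell, SSR1, DDOST and STT3A, had no exact match in their windows. A further element, TGACGTGG, which XBP1 is known to bind, was found in 4 members (HYOU1, SEC62, SSR3 and SSR4), where 0.927% of all genes held it, and in HYOU1 it overlapped one of the matches shown. A match is a string of letters and not a site shown to be bound.

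**Figure D5:**
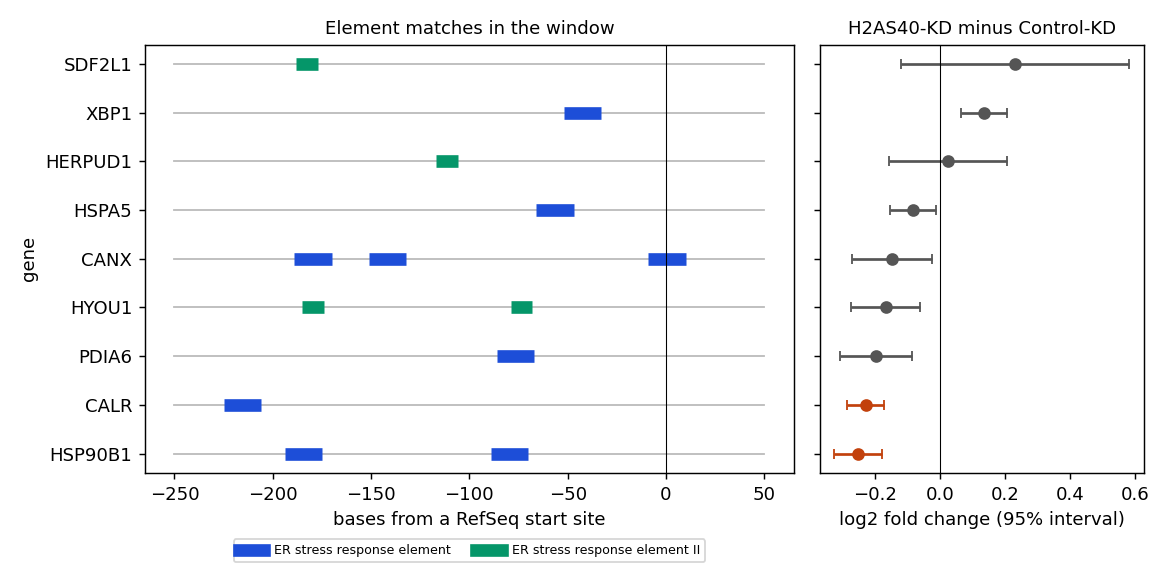
Left, matches to the ER stress response element (blue) and element II (green) in the windows of 9 members, by distance in bases from a RefSeq start site; the 3 marks of CANX are 1 match seen from 3 start sites. Right, limma log2 fold change with its 95% interval, orange where the gene passed: HSP90B1 at -0.25 and CALR at -0.23 are lowest, and XBP1 at 0.14 and SDF2L1 at 0.23 are highest.

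Other genes of the same pathways, listed by function outside the 60, had a median nearer 0. Of 112 listed, 110 were tested, and DERL3 and ERN2 were not. Limma called 0 of the 110 lower, and 2 rose, where 0.742% and 0.516% of all tested genes were called. These counts are near those shares. The median log2 fold change of the 110 was -0.04. At an unadjusted p under 0.05, 24 were lower and 11 higher, where 7.75% and 8.76% of all tested genes were. In 27 the H2AS40-KD-labelled libraries all lay below Control-KD and in 14 all above, where 11.3% and 12.9% of all tested genes did. Both rises were in the stress response list. Of its 16 tested genes 9 had a negative fold change and 7 a positive one, with a median of -0.01. ATF4, a transcription factor made when translation is restrained, measured 339, 331 and 345 TPM against 383, 392 and 396 TPM (log2 fold change 0.21, SE 0.029, limma adjusted p = 0.0282). PPP1R15A, the phosphatase subunit that restores translation, measured 344, 343 and 340 TPM against 473, 488 and 490 TPM (log2 fold change 0.50, SE 0.027, limma adjusted p = 0.00332). Neither overlapped. Of 16 alternatives PPP1R15A was called in 14 (limma adjusted p from 0.00231 to 0.0706) and ATF4 in 7 (0.0221 to 0.147), and of the libraries left out in turn ATF4 kept its call only without Control-KD replicate 3. Its limma adjusted p was 0.112 and 0.106 without Control-KD replicates 1 and 2, and 0.111, 0.127 and 0.102 without H2AS40-KD replicates 1, 2 and 3. In no other list did a gene pass. The gene with the smallest p was TMCO1 among the other targeting and insertion genes (144 and 123 TPM, limma adjusted p = 0.0677). It was QSOX1, a sulfhydryl oxidase, among those of folding (217 and 185 TPM, limma adjusted p = 0.0669), and FAF2 among those of degradation (55.4 and 49.3 TPM, limma adjusted p = 0.131). Medians of these lists ran from -0.06 to -0.01 on the log2 scale.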

How the data were processed

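RNA from 6 libraries of cells labelled MDA-MB-231 was analysed as gene-level TPM, 1 column per library, as deposited by the authors. Groups and replicate numbers came from the sample titles. Per the labels' protocols, a total RNA miniprep kit and an RNA library kit were used. The quantifier was not given in the sources used here; hg38, Bowtie2 and MACS2 are named with no role, per the submitters' processing notes. TPM keep no depth, so no counting interval is given, and a listed 0 may be a failed estimate. Of 37247 identifiers, 34436 matched a symbol.

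The 14160 genes at 1 TPM or more in 3 or more libraries were fitted as log2(TPM + 1) with limma 3.58.1 in R 4.3.3 (eBayes with an intensity trend, two-sided, Benjamini-Hochberg over all tested genes, threshold 0.05). Fold changes on that scale understate those of low genes. The members, the related lists and the tests were chosen with earlier results of these data known. Members that passed, and the most changed and most abundant member of each step, were given in full, and of each related list the genes that passed or the smallest p, except that 1 such gene is not reported here. Other members were named after their values were seen. The planned sum of H2A genes with serine 40 was replaced by that of all H2AC genes, since no protein sequences were at hand. Tested on simulated data for this comparison (14160 genes, 200 changed at each size), the fit called 36.5% of those moved by a log2 fold change of 0.25, 71% of those moved by 0.5 and 97% by 1, and 3.54% of calls were false. In no pair of libraries did more than 0.113% of the genes share a TPM exactly. Alternatives covered the pseudocount, filter, scaling, trend, replicate number and each library left out.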

Additional observations from a re-analysis of the deposited data

How the results depend on the processing

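Over 16 alternatives, 47 of the 60 members kept the sign of their fold change, and the 13 that did not had an absolute log2 fold change of at most 0.07. No member was called higher in any alternative, and the calls lower were always among the same 5 genes. The median log2 fold change of the members ran from -0.08 to -0.11 with 1 library left out, and was -0.12 with the trend of fold change on gene span removed, which was added after seeing the data and under which all 5 calls were kept. With no filter on low values, which tests 23967 genes, 98 genes and 3 members were called. Without an intensity trend limma called 10 genes and 0 members, with 20 members lower at an unadjusted p under 0.05. With 1 library left out, 5 to 159 genes and 0 to 3 members were called. With the replicate block (replicate number as a term) limma called 0 genes and 0 members, with 2032 genes and 24 lower members at an unadjusted p under 0.05. Deviations of same-numbered libraries had correlations of -0.0101, -0.0642 and -0.00154, and 0 of 6 libraries correlated best with its own number. With 3 libraries a group these values cannot show whether same-numbered libraries shared a culture or a preparation, and the labels do not say. Signs differed for SRP68 under quantile normalization (-0.0086) and without Control-KD replicate 1 (-0.0031). For SEC61B they differed under median-of-ratios scaling (-0.0011), quantile normalization (-0.0030) and removal of the span trend (-0.027), and without Control-KD replicate 1 (-0.0074) or replicate 1 labelled H2AS40-KD (-0.029). With 1 library left out the highest values were 0.020 for SRP68 and 0.029 for SEC61B. For DAD1 signs differed without Control-KD replicate 3 (0.0011) or replicate 3 labelled H2AS40-KD (0.010), and its lowest value with 1 library left out was -0.046. The causes were not tested. The sum of H2A genes with serine 40 and its alternatives were not run. Unknown depth and 3 libraries a group limit all values.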
